A study of Mus musculus with 8 samples.

Results

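The genes described here are Nid1, Nid2, Hspg2, Agrn, Col15a1 and Col18a1, which encode nidogen-1, nidogen-2, perlecan, agrin and the core chains of collagens XV and XVIII. They were chosen by name as the linkers and proteoglycans of the basement membrane, and they are 6 of the 21895 genes with FPKM values (sequenced fragments divided by transcript length in kilobases and by the mapped fragments of the library). Whole cochleae of miR-29a WT (miR-29a+/+) and miR-29a KO (miR-29a-/-) mice were compared by RNA sequencing, with 4 libraries per genotype, numbered WT1 to WT4 for wild type and KO1 to KO4 for knockout. The KO strain is deficient for miR-29a from the germ line, was kept on the C57BL/6 background and was bred from heterozygous parents, animals of both sexes were used, and no treatment is named. The age is given as 21 days in the record of the series, and the study's methods give an older age, so the age of the mice is uncertain. The labels name no animal for any library and do not say whether animals were pooled, so the p-values below measure the spread between these libraries only. Since no value for miR-29a itself was used, the labels could not be checked against its loss.

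A basement membrane is a thin sheet of extracellular matrix built from a laminin network and a collagen IV network. Nidogens bind both networks, perlecan and agrin carry heparan sulphate chains that hold growth factors and bind cell surface receptors, and collagens XV and XVIII are proteoglycan collagens that sit where the sheet meets the underlying stroma. In the cochlea such sheets lie under the epithelium of the organ of Corti, along the basilar membrane and around the capillaries of the stria vascularis. Members of the miR-29 family bind the 3′-UTRs of many collagen and other matrix mRNAs through the seed of the miRNA, and lower the amount of those mRNAs.

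The mature miRNAs of the family are shown because the seed fixes the letters that were searched for in the 6 genes. RefSeq sequences on GRCm38.p6 are given 5′ to 3′, with the seed, bases 2 to 8, in capitals.
mmu-miR-29a-3p: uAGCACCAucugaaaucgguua
mmu-miR-29b-3p: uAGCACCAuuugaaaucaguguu
mmu-miR-29c-3p: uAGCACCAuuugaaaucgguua
All 3 share 1 seed. Mature miR-29a is encoded on the minus strand at chr6:31062673-31062694 (GRCm38), beside a copy of miR-29b, and miR-29c lies with the other copy of miR-29b on chromosome 1, so 2 other mature miRNAs carry the seed of miR-29a.

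The letters that pair with the full seed are TGGTGCT. They occur once in the longest annotated 3′-UTR of Agrn, at chr4:156166333-156166339 on the minus strand, which is position 157 to 163 of 1206 bases. They occur once in that of Col15a1, at chr4:47312500-47312506 on the plus strand, position 210 to 216 of 877 bases, where the next base is an A. The letters GGTGCTA, which pair with bases 2 to 7 and end in an A, overlap the site in Col15a1 and were found once in Hspg2, at chr4:137570615-137570621 on the plus strand (position 951 to 957 of 966 bases), and once in Nid2, at chr14:19811663-19811669 on the plus strand (position 467 to 473 of 591 bases). The 4 sites are printed as mRNA strand from GENCODE release 21 on GRCm38, with the matching letters in capitals.
Agrn: gcagagacaaaaagTGGTGCTg
Col15a1: tccaatccacatatTGGTGCTa
Hspg2: ttttcttaataaacGGTGCTAt
Nid2: tttatttatactaaGGTGCTAc
Neither set of letters occurs in the 3′-UTRs of Nid1 (2202 bases) and Col18a1 (1016 bases). TGGTGCT occurs in 15.5% of the 3′-UTRs of tested genes, and in 13.0% and 9.85% of 3′-UTRs as long as those of Agrn and Col15a1 (0.8 to 1.25 times their length). GGTGCTA occurs in 7.84% of all of them, and in 5.12% and 3.42% of those as long as the 3′-UTRs of Hspg2 and Nid2. For comparison, TGGTGCT was found in 7 of the 17 genes for collagen IV and laminin chains. These 7 have 3′-UTRs of 971 to 4708 bases, and no share among 3′-UTRs of like length was computed for them. Lamb2 had no match in its longest annotated 3′-UTR of 110 bases. The study places a site in the 3′-UTR of Lamb2 and reports the gene as a direct target. A match is a description of the letters and does not show that the miRNA binds there.

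Before the members are described, 1 library needs mention. WT1 was the lowest of the 8 libraries for each of the 6 genes, and its values were between 23.5% (Agrn) and 80.1% (Nid1) of the mean of the other WT libraries. Genes whose transcripts are rich in G and C were lower in WT1 than other genes. The median difference of WT1 from the mean of the other WT libraries was between -0.27 and -0.44 on the log2 scale in the lower 4 of 5 equal bins of genes by GC content and -0.84 in the highest bin, which holds Hspg2, Agrn, Col15a1 and Col18a1 (GC content 56.4% to 60.9%). Nid1 (50.4%) and Nid2 (54.6%) lie in the bins below it. The same difference was -0.30 for Nid1, -0.78 for Nid2, -0.72 for Hspg2, -2.05 for Agrn, -0.91 for Col15a1 and -1.49 for Col18a1. It did not follow the order of GC content, as Hspg2 has the highest of the 6 genes. The part of GC content in the low values of WT1 was not tested. WT1 and WT3 also had the lowest correlations with the other libraries over tested genes (median Pearson r of 0.852 and 0.850, against 0.910 to 0.938 for the rest). The fits of the 6 genes, their ratios and the counts of the gene lists are therefore given with and without WT1. The 6 genes are given once more after the values were centred within bins of GC content, and without WT3. Summed FPKM was 249200 to 288700 per library, and the relative sequencing depth estimated from values under 0.1 FPKM differed little, from 0.953 to 1.17, so WT1 was not the shallowest library.

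Of the 6 genes, only Nid1 was called, as higher in KO cochleae, at an unadjusted threshold. None passed after adjustment over all tested genes, and the call of Nid1 was lost in several alternative fits. FPKM were compared as log2(FPKM + 0.1) by limma over all 14990 genes with a mean of at least 0.5 FPKM, and all 6 genes passed that filter. A gene was called at an unadjusted p under 0.05, which is the threshold the study used. By this rule 691 genes, or 4.61%, were higher in KO and 76, or 0.507%, were lower, so 1 higher and 0 lower of 6 genes stand against these shares. No gene of the whole table had a Benjamini-Hochberg adjusted limma p under 0.05 in the 8 libraries (767 genes at an unadjusted p under 0.05). In none of the 6 genes did the 4 KO libraries stay clear of the 4 WT libraries, while 3.5% of all tested genes had groups that did not overlap. All 6 estimates were above 0, as were 66.5% of those of all tested genes, with a median log2 fold change of 0.40 for the 6 genes and 0.10 for all tested genes. Without WT1 these medians were 0.14 and -0.02. With median-ratio scaling of the libraries they were 0.30 and 0.0043, Nid1 was still called (log2 fold change 0.33), and 402 genes were called higher and 363 lower, so the excess of higher calls in the whole table (90.1% of calls, against 52.6% after this scaling, 40.9% after quantile normalization and 45.5% after the centring by GC content described below) depends on the scaling.

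**Figure D1:**
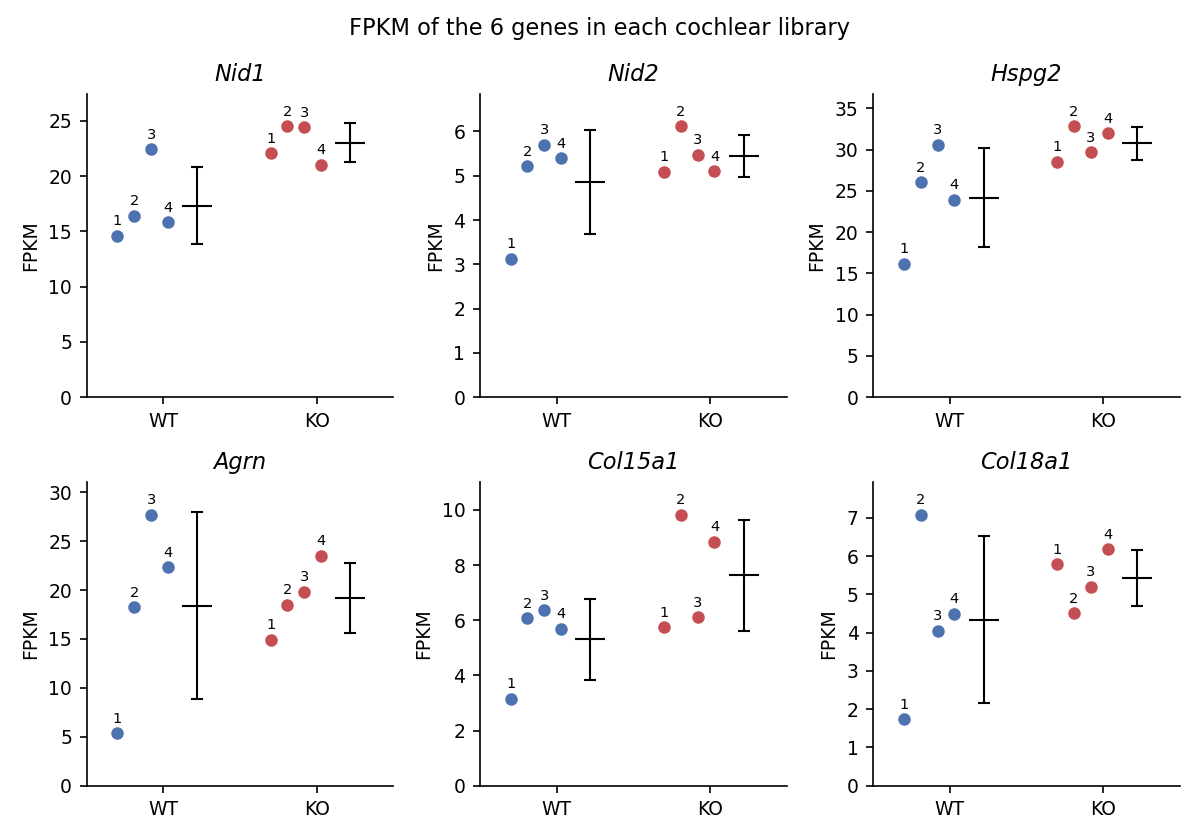
FPKM of the 6 genes (vertical axes, each starting at 0) in miR-29a WT and KO cochleae, where each point is a library with its number and the bar and whiskers are the mean and SD of 4 libraries. WT1 is the lowest point in every panel, 3 WT libraries of Nid1, Hspg2 and Col18a1 lie below all KO libraries, and the groups overlap for all 6 genes.

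Nid1 (ENSMUSG00000005397, GRCm38 chr13:13437551-13512269, plus strand) encodes nidogen-1, the glycoprotein that joins the laminin γ1 chain to collagen IV. Its FPKM was 14.6, 16.4, 22.4 and 15.8 in WT1 to WT4 and 22.1, 24.5, 24.4 and 21.0 in KO1 to KO4. WT1, WT2 and WT4 lay below every KO library, and WT3 lay among them. The mean was 17.3 ± 3.49 in WT against 23.0 ± 1.75 in KO (SD, n = 4 each), a ratio of 1.33. The log2 fold change by limma was 0.43 (SE 0.16, 95% interval 0.07 to 0.78), with an unadjusted p below the threshold and a Benjamini-Hochberg adjusted p = 0.947. The exact two-sided permutation test over the same 8 libraries gave p = 0.0857, where 0.0286 is the smallest value it can give. Without WT1 the log2 fold change was 0.35 (SE 0.15, 95% interval 0.02 to 0.69, Benjamini-Hochberg adjusted p = 0.24), and Nid1 was again the only one of the 6 genes called, beside 12.1% of all tested genes higher and 7.4% lower in that fit. The call was lost when WT2, WT4, KO2 or KO3 was left out and in the 6 libraries numbered 1 to 3, with log2 fold changes of 0.39 to 0.43 in these 5 fits. Of the 50-base words of its transcripts, 1.83% also occur in another gene (Gm2399), so few reads could be shared.

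Nid2 (ENSMUSG00000021806, chr14:19751265-19811787, plus strand) encodes nidogen-2, the paralogue that can stand in for nidogen-1 in many basement membranes. Its FPKM was 3.12, 5.22, 5.71 and 5.40 in the WT libraries and 5.09, 6.12, 5.47 and 5.11 in the KO libraries. Apart from WT1, the WT libraries lay within the range of the KO libraries. The mean was 4.86 ± 1.18 in WT against 5.45 ± 0.483 in KO (SD, n = 4 each), and the log2 fold change was 0.19 (95% interval -0.29 to 0.68, exact permutation p = 0.543). Without WT1 the WT mean was 5.44 ± 0.245, and the log2 fold change was -0.0014, with an interval of -0.30 to 0.30. The estimate for Nid1 in the same fit without WT1, 0.35, lay above this interval. In the 8 libraries the estimate for Nid1, 0.43, lay inside the interval of Nid2. Neither statement is a test of a difference between the nidogens.

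The nidogens were also compared with each other inside each library, since a ratio of 2 genes does not depend on how a library was scaled. Nid1 was the more abundant nidogen per length in all 8 libraries. The ratio of Nid1 to Nid2 was 4.67, 3.14, 3.93 and 2.93 in the WT libraries and 4.33, 4.01, 4.47 and 4.12 in the KO libraries. The KO libraries lay inside the WT range, which WT1 set at its upper end. The log2 ratio was 1.83 ± 0.30 in WT against 2.06 ± 0.07 in KO (SD, n = 4 each), a difference of 0.23 with an exact permutation p of 0.257 (0.643 after Benjamini-Hochberg adjustment over the 5 ratios compared). Without WT1, each KO library had a higher ratio than each WT library and the difference was 0.35, with an exact permutation p of 0.0571, which is the smallest that 3 against 4 libraries can give. So a difference in response between the nidogens was not shown by the test of that difference.

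Hspg2 (ENSMUSG00000028763, chr4:137468769-137570630, plus strand) encodes perlecan, a very large proteoglycan whose heparan sulphate chains bind growth factors such as FGF2. It is the longest of the 6 genes in transcript, with 14187 bases in up to 97 exons. Its FPKM was 16.2, 26.1, 30.6 and 23.9 in WT1 to WT4 and 28.6, 32.9, 29.7 and 32.0 in KO1 to KO4. As for Nid1, WT1, WT2 and WT4 lay below every KO library and WT3 lay within their range. The mean was 24.2 ± 6.04 in WT against 30.8 ± 1.997 in KO (SD, n = 4 each), a ratio of 1.27. The log2 fold change was 0.38 (SE 0.19, 95% interval -0.06 to 0.83), with a Benjamini-Hochberg adjusted limma p of 0.947 and an exact permutation p of 0.0857. Without WT1 it was 0.20 (95% interval -0.07 to 0.48). Without WT3 it was 0.51, and Hspg2 was then called.

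Agrn (ENSMUSG00000041936, chr4:156165290-156197488, minus strand) encodes agrin, which binds laminin and dystroglycan and, in its neural form, gathers acetylcholine receptors at synapses. Its FPKM was 5.36, 18.2, 27.7 and 22.3 in WT and 14.9, 18.5, 19.8 and 23.5 in KO. The highest and the lowest of the 8 libraries were both WT. The mean was 18.4 ± 9.53 in WT against 19.2 ± 3.56 in KO (SD, n = 4 each), and the log2 fold change was 0.27 with the widest interval of the 6 genes, -0.79 to 1.32 (exact permutation p = 0.8286). Without WT1 the estimate was below 0, at -0.24 (95% interval -0.68 to 0.19), with a WT mean of 22.8 ± 4.76 (n = 3). Agrn holds the full seed match shown above, and neither fit called it.

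Perlecan and agrin were compared within libraries in the same way. Hspg2 had more FPKM than Agrn in every library. The ratio was 3.02 in WT1, 1.07 to 1.43 in the other WT libraries and 1.36 to 1.91 in the KO libraries. WT1 thus stood above all other libraries in this ratio. The log2 ratio was 0.58 ± 0.69 in WT against 0.70 ± 0.22 in KO (SD, n = 4 each), and the difference of 0.11 had an exact permutation p of 0.771. Without WT1 the difference was 0.44, with an exact permutation p of 0.114.

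Col15a1 (ENSMUSG00000028339, chr4:47208161-47313167, plus strand) encodes the chain of collagen XV, which is common around capillaries, muscle fibres and peripheral nerves. Its FPKM was 3.15, 6.07, 6.35 and 5.68 in WT1 to WT4 and 5.75, 9.83, 6.11 and 8.85 in KO1 to KO4. KO2 and KO4 lay above all WT libraries, and KO1 and KO3 lay among WT2, WT3 and WT4. The mean was 5.32 ± 1.47 in WT against 7.63 ± 2.02 in KO (SD, n = 4 each), a ratio of 1.44, the largest of the 6. The log2 fold change was 0.53 (SE 0.28, 95% interval -0.10 to 1.16), with a Benjamini-Hochberg adjusted limma p of 0.947 and an exact permutation p of 0.171. Without WT1 it was 0.30 (95% interval -0.18 to 0.78). Its 3′-UTR holds the full seed match followed by an A.

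Col18a1 (ENSMUSG00000001435, chr10:77052178-77166548, minus strand) encodes the chain of collagen XVIII, whose C-terminal piece is released as endostatin. Its FPKM was 1.74, 7.09, 4.05 and 4.50 in the WT libraries and 5.79, 4.51, 5.20 and 6.19 in the KO libraries. WT1 was the lowest and WT2 the highest of the 8 libraries, and WT1, WT3 and WT4 lay below all KO libraries. The mean was 4.34 ± 2.19 in WT against 5.42 ± 0.730 in KO (SD, n = 4 each), and the log2 fold change was 0.46 (95% interval -0.39 to 1.32, exact permutation p = 0.343). Without WT1 it was 0.09 (95% interval -0.41 to 0.59). The gene overlaps Slc19a1, which is read from the other strand. Nid1, Nid2 and Col15a1 also overlap a gene on the other strand (Gm48682, Rtraf and Gm12426). The libraries keep the strand, but whether the counting used it is not given in the sources used here.

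The ratio of Col15a1 to Col18a1 ranged from 0.857 to 1.82 in WT and from 0.992 to 2.18 in KO. WT2 lay below every KO library and KO2 above every WT library, and the other 6 libraries overlapped. The difference of the log2 ratio was 0.07 (WT 0.39 ± 0.46, KO 0.46 ± 0.48, SD, n = 4 each), with an exact permutation p of 0.857, and without WT1 it was 0.21, with an exact permutation p of 0.629.

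**Figure D2:**
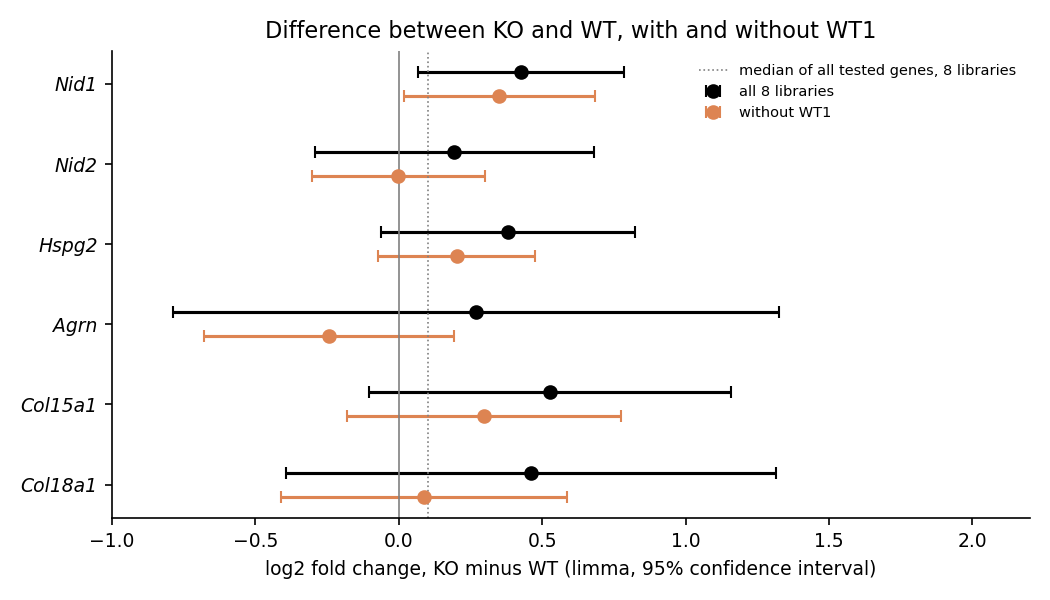
Log2 fold change of the 6 genes, KO minus WT, with 95% intervals from limma, for all 8 libraries (black) and without WT1 (orange), and with dotted and solid lines at the median of all tested genes (0.10) and at 0. Only the intervals of Nid1 stay above 0 in both fits, and the estimate moves most for Agrn, from 0.27 to -0.24.

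The estimates were smaller after each library had been centred within 20 bins of transcript GC content, an alternative chosen after the data were seen. The log2 fold change was then 0.33 for Nid1, 0.03 for Nid2, 0.07 for Hspg2, 0.08 for Agrn, 0.35 for Col15a1 and 0.15 for Col18a1, and 0 of the 6 genes were called. All 6 estimates were still above 0, and those of Nid1 and Col15a1 were the only ones above 0.2. Leaving out WT3 moved all 6 estimates up, where leaving out WT1 had moved them down. Without WT3 they were 0.56 for Nid1, 0.28 for Nid2, 0.51 for Hspg2, 0.54 for Agrn, 0.63 for Col15a1 and 0.48 for Col18a1. Nid1 and Hspg2 were then called, beside 537 genes called higher and 59 lower of 15017 tested.

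The levels of the 6 genes are set in order here, since FPKM are per length of transcript. FPKM do not allow for GC content, which runs from 50.4% for Nid1 to 60.9% for Hspg2. Its part in the order of the genes was not tested. Over all 8 libraries the mean FPKM was 27.5 for Hspg2, 20.2 for Nid1, 18.8 for Agrn, 6.48 for Col15a1, 5.16 for Nid2 and 4.88 for Col18a1. Hspg2 was above Nid1 in 8 of 8 libraries, Agrn above Col15a1 in 8 and Col15a1 above Nid2 in 8, although by a factor of as little as 1.009 in the last case. Nid1 and Agrn could not be placed in order, as Nid1 was higher in 4 of 8 libraries, nor could Nid2 and Col18a1, with Nid2 higher in 5 of 8. The sum of the 6 genes was 44.1, 79.1, 96.9 and 77.6 FPKM in WT1 to WT4 and 82.2, 96.3, 90.7 and 96.7 in KO1 to KO4. In WT1, Agrn made up 12.1% of this sum and Nid1 33.1%, against 23.1% to 28.8% and 20.4% to 23.1% in the other WT libraries and 18.2% to 24.3% and 21.7% to 26.9% in KO. The share of Hspg2 was 30.8% to 36.6% over all libraries.

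The spread between libraries also differed by group. The coefficient of variation was 20.2% to 51.8% in WT and 6.49% to 26.4% in KO, and it was higher in WT for each of the 6 genes. Without WT1 it was 4.49% to 31.4% in WT, and below that of KO for Nid2 (4.49% against 8.87%) and Col15a1 (5.58% against 26.4%). Agrn (51.8%) and Col18a1 (50.5%) varied most in WT, and Col15a1 (26.4%) varied most in KO. Across the 8 libraries, after each library was centred on its median, the highest correlations between members were those of Nid2 with Agrn (Pearson r = 0.82) and Hspg2 with Col15a1 (r = 0.815), and the lowest were those of Nid1 with Col18a1 (r = -0.0045) and Nid1 with Agrn (r = 0.151). Each r rests on the same 8 libraries, WT1 among them, and is given as a description. The genes outside the 6 with the most similar pattern were Wwtr1, Zfp91 and Wee1 for Nid1 (r = 0.953 to 0.966), Rnls, Fancf and Sucla2 for Nid2 (0.984 to 0.986), Rbm8a, Crim1 and Plekhf1 for Hspg2 (0.951 to 0.974), Cldn7, Trim37 and Ado for Agrn (0.993 to 0.996), 2700081O15Rik, Cdkn2aip and Mlxipl for Col15a1 (0.916 to 0.932), and Arih2, Tnrc18 and Ssbp4 for Col18a1 (0.951 to 0.972). No gene was among the 3 most similar of more than 1 member.

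Col4a1 and Lamc1, genes of the networks that the members join, were called higher in KO cochleae at the unadjusted threshold. Their groups did not overlap, as was so for 3.5% of all tested genes. Lamc1 was not called in the libraries numbered 1 to 3, without KO4 or after centring by GC content. Col4a1, the chain of collagen IV found in nearly all basement membranes, had 6.97, 20.5, 19.0 and 19.4 FPKM in the WT libraries and 39.3, 43.0, 37.3 and 33.5 in the KO libraries. All KO libraries lay above all WT libraries. Its log2 fold change was 1.32 (SE 0.33, limma with Benjamini-Hochberg adjusted p = 0.922), and 0.95 without WT1 (SE 0.11, adjusted p = 0.125). Lamc1, the laminin γ1 chain to which nidogen binds, had 22.8, 31.7, 36.5 and 30.7 FPKM in WT and 40.0, 40.0, 39.9 and 43.2 in KO, again without overlap, with a log2 fold change of 0.44 (SE 0.16, limma with Benjamini-Hochberg adjusted p = 0.947), and 0.31 without WT1.

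Relative to these partners, the ratio of Hspg2 to Col4a1 was lower in KO, although not past adjustment over the 5 ratios. No difference was detected in that of Nid1 to Lamc1. Col4a1 was itself higher in KO, with a log2 fold change of 1.32 against 0.38 for Hspg2. A lower ratio is therefore no sign of less Hspg2, and the pair was chosen with earlier results of these data known. The ratio of Nid1 to Lamc1 was 0.515 to 0.639 in WT and 0.487 to 0.613 in KO, and the difference of the log2 ratio was -0.01 (WT -0.81 ± 0.16, KO -0.83 ± 0.16, SD, n = 4 each, exact permutation p = 0.943). Without WT1 this difference was 0.04, with an exact permutation p of 0.743. The ratio of Hspg2 to Col4a1 was 2.32, 1.27, 1.61 and 1.23 in WT1 to WT4 and 0.726, 0.765, 0.796 and 0.957 in KO1 to KO4. Every WT library had more Hspg2 than Col4a1 per length, and every KO library had less. The log2 ratio was 0.63 ± 0.42 in WT against -0.31 ± 0.17 in KO (SD, n = 4 each), a difference of -0.94, with an exact permutation p of 0.0286, the smallest that 4 against 4 libraries can give, and 0.143 after Benjamini-Hochberg adjustment over the 5 ratios. Without WT1 the difference was -0.75, with an exact permutation p of 0.0571, again the smallest possible.

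**Figure D3:**
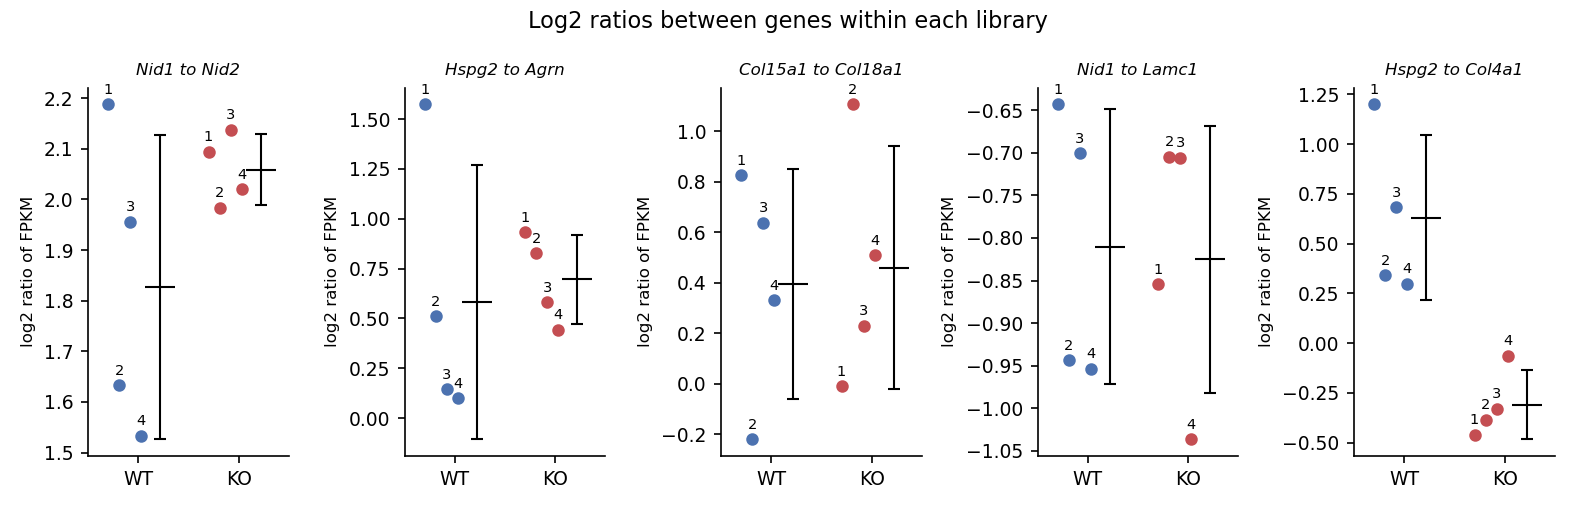
Log2 ratio of FPKM of 5 pairs of genes within each library (vertical axes differ in range), for miR-29a WT and KO cochleae, with the mean and SD of 4 libraries. The groups are apart for Hspg2 to Col4a1 alone, and WT1 is the highest WT point in all 5 panels.

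The rest of the basement membrane is given by 5 lists of genes, counted by the same rule as the 6 members and to be read beside the 4.61% of all tested genes called higher and the 0.507% called lower. Of the 17 genes for collagen IV and laminin chains, 4 were called higher in KO (Col4a1, Col4a2, Lamb3 and Lamc1) and 0 lower. The median log2 fold change was 0.28, with all 17 estimates above 0 (66.5% of all tested genes). Without WT1, 5 were higher and 0 lower, beside 12.1% and 7.4% of all tested genes. Col4a2, which forms a trimer with Col4a1, had a log2 fold change of 1.29 (SE 0.31), and Lamb3, a chain of epithelial laminin, one of 0.46 (SE 0.16). Of 21 tested genes for other basement membrane glycoproteins, 2 were called higher and 0 lower, with a median of 0.22. Without WT1, 5 were higher and 1 lower. The 2 were Sparc, a glycoprotein that binds collagen IV, and Tinagl1, a laminin-binding glycoprotein (log2 fold change 0.86, SE 0.31). Sparc was 310.1 to 335.5 FPKM in WT and 764 to 936 in KO, and its log2 fold change was 1.33 (SE 0.22, limma with Benjamini-Hochberg adjusted p = 0.87), and 1.35 without WT1. The third smallest p in this list was that of Npnt, encoding the integrin ligand nephronectin, with a log2 fold change of 0.42 (SE 0.19, exact permutation p = 0.0571).

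None of the 29 genes for receptors and partners of the members was called in either direction, and their median log2 fold change was 0.17. The smallest p-values were those of the proteoglycan syndecan-1 (Sdc1, log2 fold change 0.43, SE 0.23), integrin β3 (Itgb3, 0.89, SE 0.52) and rapsyn (Rapsn, 0.51, SE 0.35), which anchors acetylcholine receptors downstream of agrin. Of the 29 tested genes that build or edit heparan sulphate chains, as carried by perlecan, agrin and collagen XVIII, 0 were called, with a median of 0.09, close to that of all genes. The sulphotransferases Ndst4 (log2 fold change -0.51, SE 0.26), Hs3st3b1 (0.57, SE 0.34) and Ndst1 (0.31, SE 0.19) had the smallest p-values. Without WT1, 5 of these 29 genes were lower and 0 higher, and 3 receptors and partners were higher and 1 lower, beside the 12.1% and 7.4% of all tested genes given above. In the list of proteases that cut the members, 3 of 13 tested genes were called higher and 0 lower, with a median of 0.30. Without WT1, 4 were higher (Ctsk, Mmp2, Mmp9 and Mmp13) and 0 lower, so Mmp14 was not called in that fit. With 8 libraries the 3 were the gelatinase Mmp2 (log2 fold change 0.68, SE 0.16), the lysosomal protease cathepsin K (Ctsk, 1.72, SE 0.59) and Mmp14 (0.30, SE 0.13). Ctsk is abundant in osteoclasts, and Mmp14 activates the product of Mmp2. Over the genes named from the 5 lists, Benjamini-Hochberg adjusted limma p-values lay between 0.87 and 0.947. Lamb3 and Mmp14 were not called after median-ratio scaling, nor were Lamb3, Lamc1 and Mmp14 after centring by GC content. Mmp14 was also not called without the variance trend, with the replicate block or in the libraries numbered 1 to 3. Ctsk was also high in WT1, at 73.2 FPKM against 8.19 to 27.2 in the other WT libraries.

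**Figure D4:**
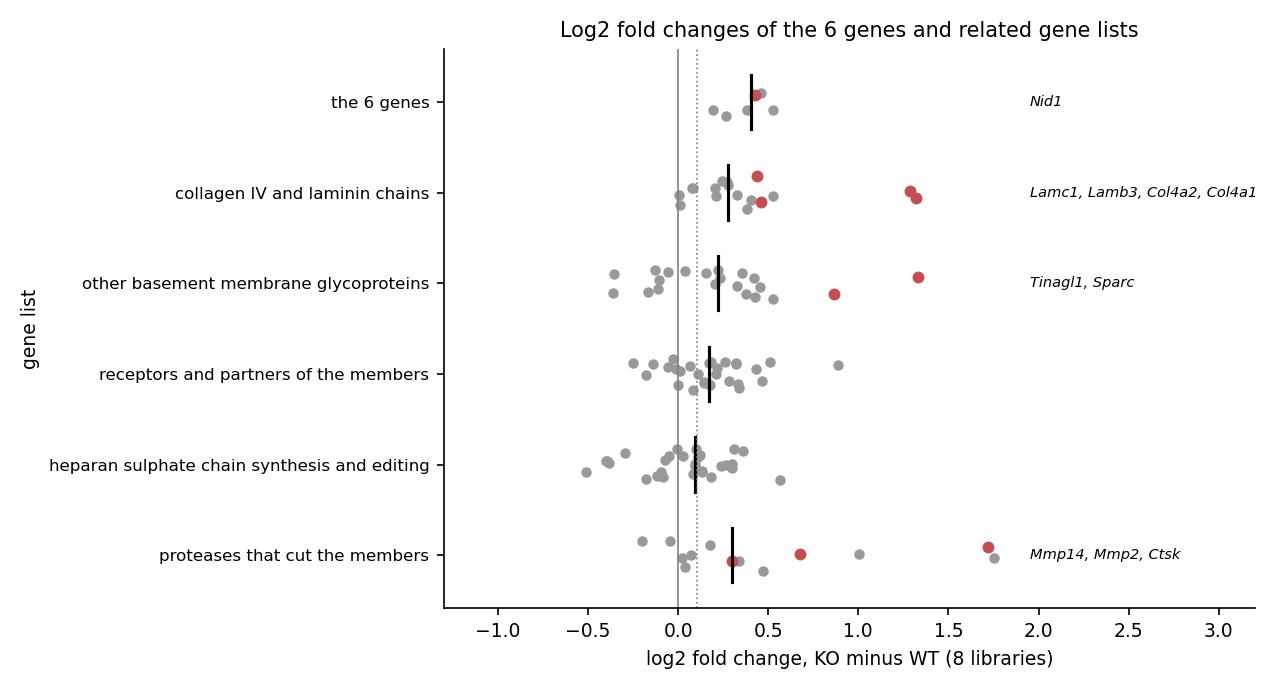
Log2 fold change, KO minus WT, of each tested gene of the 6 members and of 5 related lists, where red points are genes called at an unadjusted limma p under 0.05 (named at the right), grey points are the other genes, and black bars are list medians. The medians run from 0.09 for heparan sulphate synthesis to 0.40 for the 6 members, beside 0.10 for all tested genes (dotted line), and no listed gene was called lower.

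In whole tissue, fewer cells of a type and less RNA per cell cannot be told apart, and sums of markers do not separate them either. As a description, markers of the cells that the cochlea and its bone hold were summed in each library. All 14 cochlear markers, such as Coch of the lateral wall, were present in every library. Coch made up most of their sum, at 1231 to 1927 FPKM in WT and 1433 to 1841 in KO, and the other 13 summed to 273 to 571 in WT and 309 to 457 in KO. Of the 14 markers, 4 had estimates above 0, the median log2 fold change was -0.13 against 0.10 for all tested genes, and 1 (Tectb) was called lower and 0 higher in KO. After median-ratio scaling 3 were called lower, and without WT1 4 were, with a median of -0.35. The fit without WT1 called 12.1% of all tested genes higher and 7.4% lower, against 4.61% and 0.507% with 8 libraries. Endothelial cells make most of the capillary basement membrane, and their 10 markers summed to 92.3 to 107.7 FPKM in WT and 101 to 117 in KO, with 0 called and, without WT1, 1 higher. Pericyte and smooth muscle markers summed to 117 to 122 in WT and 117 to 166 in KO, with 0 called and, without WT1, 2 higher. Fibroblast markers summed to 453 to 668 in WT and 837 to 1135 in KO without overlap. Col1a1 (64.1 to 241 in WT and 282 to 424 in KO) and Col1a2 were the most abundant of them in KO. Col1a1, Col1a2, Fbn1 and Dpp4 did not overlap between the groups, beside 3.5% of all tested genes. The values of Pdgfra, Dcn, Lum, Dpt, Mfap5 and Pi16 did overlap. Of the 10 markers, Col1a1, Col1a2 and Fbn1 were called higher (5 without WT1). These 3 genes are themselves matrix genes, so the list does not count fibroblasts alone.

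Other marker sums followed single libraries. Counts without WT1 are again to be read beside the 12.1% of all tested genes higher and 7.4% lower in that fit. Schwann cell markers summed to 433 FPKM in WT1, 889 to 1459 in the other WT libraries and 761 to 971 in KO. Of the 10 markers 0 were called (2 lower without WT1). WT1 was the lowest in them as it was in the 6 members, but not in them alone. WT1 was also the lowest in the sums of endothelial markers (92.3), skeletal muscle markers (49.5) and cochlear markers without Coch (273). The same held for the lists of collagen IV and laminin chains, receptors and partners, and heparan sulphate synthesis. The 15 marrow blood cell markers summed to 16740, 2984, 496.3 and 4436 FPKM in WT1 to WT4 and to 9667, 10680, 16900 and 6479 in KO1 to KO4, and all 15 estimates were above 0, with a median log2 fold change of 2.16. Hbb-bt and Vpreb1 were called higher with all 8 libraries, all 15 markers were called higher without WT1 (median 3.01), and 1 was called without WT3 (median 0.89). WT1, the lowest library for the 6 members, was thus second highest in marrow markers, while WT3, the lowest in marrow markers, was the highest WT library for Nid1, Nid2, Hspg2, Agrn and Col15a1. Of the osteoblast and osteocyte markers 1 of 10 (Sost) was called higher, with sums of 52.5 to 652 in WT and 301 to 530 in KO, and 5 were called higher without WT1. Of 9 tested skeletal muscle markers 1 (Mylpf) was called higher. Pvalb made up nearly all of their sum in WT, and without it they summed to 0.791 to 12.8 FPKM in WT, 3.14 to 52.9 in KO1, KO2 and KO4 and 389 in KO3, which stood apart in muscle genes. The number of muscle markers called was 0 without WT2, WT3 or KO4, 1 without WT1 (Mylpf) or KO3, 2 without KO1, 3 without WT4 and 7 without KO2. Of 6 tested adipocyte markers 1 (Cfd) was called higher, and without WT1 1 other (Adipoq), and their sums were 0.149 to 31.2 in WT and 6.94 to 58.3 in KO. The muscle genes Tnnt3, Tnnc2 and Myh2 and the adipocyte genes Adipoq, Cidec, Lep, Retn and Ucp1 were listed at 0 in at least 1 library. The part of these cells in the values of the 6 genes was not tested.

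**Figure D5:**
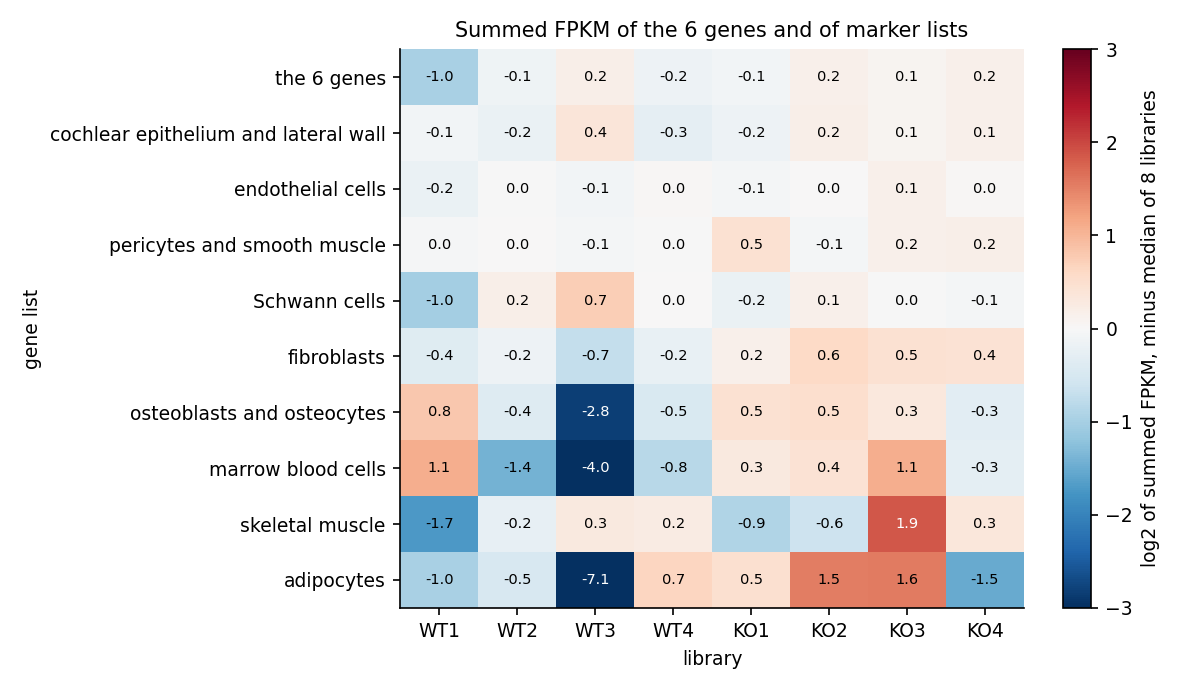
Log2 of the summed FPKM of the 6 genes and of 9 lists of cell type markers in each library, minus the median of the 8 libraries in each row (colours end 3 log2 units from the median, and numbers give the value). The sums of the 6 genes and of Schwann cell, endothelial and skeletal muscle markers are lowest in WT1, while marrow and bone markers are lowest in WT3.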

How the data were processed

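RNA sequencing values of 8 cochlear libraries, 4 of each genotype, were analysed, with genotype and number taken from the sample titles. The authors removed ribosomal RNA, built libraries that keep the strand, aligned read pairs by Hisat2 and deposited a table of FPKM values. The tool and annotation behind the FPKM are not given in the sources used here. The submitters' notes name mm9, but of 21760 gene identifiers found in GENCODE mouse release 21 (GRCm38), 19771 had identical coordinates, the 6 members included, so GRCm38 was used. FPKM carry no counts, so no counting error can be given, and depth is known only as a relative estimate.

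The log2 of FPKM + 0.1 was fitted with limma 3.58.1 in R 4.3.3, with genotype as the only factor, moderated variances with a mean-variance trend and a minimum mean of 0.5 FPKM. Benjamini-Hochberg adjustment ran over all tested genes. Ratios were compared by exact two-sided permutation tests (scipy 1.17.1, Python 3.11.15). Sequence matches were searched on the mRNA strand of the longest annotated 3′-UTR. GC content was computed for 14950 of 14990 tested genes (99.7%). The fit was tested on simulated data.

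The members, gene lists and tests were chosen with earlier results of these data known. Besides the members, the genes named are the binding partners in the ratios, the 3 genes per list with the smallest p and any called gene that moved against its list, and the 3 genes most correlated with each member. Markers named are those called or listed at 0, Coch and Pvalb as the largest parts of their sums, and all fibroblast markers. Alternatives were a pseudocount of 1, no filter or a minimum of 1 FPKM, median-ratio scaling, quantile normalization, variances without the trend, the replicate block, the 6 libraries numbered 1 to 3 (the study's figure has 3 per group), each library left out, and, added after the data were seen, centring in 20 bins of GC content. Same-numbered libraries had correlations of deviations of 0.419, -0.24, -0.17 and 0.21, so the numbers were not taken as pairs.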

Additional observations from a re-analysis of the deposited data

Results flagged for a closer look

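The 6 genes, the 16 genes named from the related lists, the 5 ratios and the summed FPKM of the 6 genes and of 9 marker lists were screened for a single library far from the others of its group, 74 groups of 4 libraries in all, of which chance alone marks about 1 in 20. The measure is the gap to the nearest library of the group as a share of the range of the group, and 7 gaps were above Dixon's 95% critical value. Among the 6 genes, Nid2 in WT1 was marked at a log2(FPKM + 0.1) of 1.69 (gap 0.852 of the range), and Col15a1 in WT1 at 1.70 (gap 0.84). WT1 was also the low library for Col4a1 at 2.82 (gap 0.93) and for Tinagl1 at 2.07 (gap 0.911). In KO the marked library was the highest, with Lamc1 at 5.44 in KO4 (gap 0.964), Sparc at 9.87 in KO2 (gap 0.885) and Itgb3 at 4.72 in KO3 (gap 0.909). Values of the 6 genes without WT1 are given in the report.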

How the results depend on the processing

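The 5 alternatives in pseudocount, filter and scaling, and the fit without the variance trend, left the call of each member as it was. The number of members called, 1 in the report, was 0 to 2 when 1 library was left out, 0 in the libraries numbered 1 to 3, 0 after GC-bin centring (361 genes higher and 433 lower in all) and 2 with the replicate block. With that block, which the check of pairing did not call for, Col15a1 was called too (log2 fold change 0.53) and 838 genes in all, against 767. Nid1 lost its call after GC-bin centring (0.33) and in the libraries numbered 1 to 3 (0.43). With each library left out in turn, the log2 fold change ran from 0.35 to 0.56 for Nid1, from -0.0014 to 0.28 for Nid2, from 0.20 to 0.51 for Hspg2, from -0.24 to 0.54 for Agrn, from 0.30 to 0.65 for Col15a1 and from 0.09 to 0.75 for Col18a1. The values below 0 for Nid2 and Agrn came without WT1, and Hspg2 was called without WT3. The differences in log2 ratio ran from -0.063 to 0.055 for Nid1 to Lamc1 (0.0075 in the libraries numbered 1 to 3), from -0.15 to 0.22 for Col15a1 to Col18a1, from -0.047 to 0.44 for Hspg2 to Agrn, from 0.13 to 0.35 for Nid1 to Nid2 and from -1.05 to -0.75 for Hspg2 to Col4a1. The number of all genes called ran from 347 without KO3 and 377 without KO2 to 2922 without WT1. The causes were not tested. With 4 libraries per group, the 95% intervals of Agrn, Col15a1 and Col18a1 reach from below 0 to above 1 on the log2 scale, so both no change and a log2 fold change of 1 lie inside them.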
